A study of Mus musculus with 6 samples.

Results

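miR-214 and miR-199a-3p are the 2 mature microRNAs (miRNAs) measured here that can be cut from 1 long noncoding RNA, Dnm3os. They were picked by their names in the deposited tables, and earlier results of these data were known when they were chosen. They are 2 of the 104 miRNAs with a threshold cycle (Ct, the PCR cycle at which a well passes the detection threshold) and 2 of the 100 that were tested. The RNA came from OSCAR+CTR+ osteoclasts, the bone-resorbing cells, sorted magnetically from mouse bone marrow 2 weeks after the anterior cruciate ligament had been cut (ACLT, which destabilises the knee) or after a Sham operation. There were 3 ACLT and 3 Sham samples. The series text says that total RNA of 3 mice a group was pooled in equal amounts, so a sample may be 1 animal or 1 of several readings of the pool. The p-values therefore describe the scatter of these 6 samples alone, and that scatter may be technical. No source used here gives the strain, age or sex.

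A miRNA is cut from a hairpin in a longer transcript. Either arm of the hairpin can become a mature miRNA, and bases 2 to 8, the seed, do most of the pairing with target messages. Dnm3os lies on the opposite strand within an intron of Dnm3 and carries the hairpins Mir199a-2 and Mir214; in mouse it is needed for normal skeletal growth. Cells of the stroma carry both miRNAs. In mouse miR-214 favours osteoclast formation, and in osteoblasts it represses Atf4. In human cells miR-199a-3p represses MTOR.

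The sequences of the array's wells show which products of the cluster could be read and which of them are told apart by sequence. Capitals mark the seed. The first pair had a Ct in all 6 samples, and the other 4 wells were listed as Null in all 6.
miR-214: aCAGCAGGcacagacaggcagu
miR-199a-3p: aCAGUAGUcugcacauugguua
miR-199b: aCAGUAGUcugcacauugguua
miR-214*: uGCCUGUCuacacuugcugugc
miR-199a-5p: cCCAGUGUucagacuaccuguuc
miR-199b*: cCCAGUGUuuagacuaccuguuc

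The seeds of miR-214 and miR-199a-3p differ at 2 bases, C5U and G8U, given with the base of miR-214 first and counted from 1 at the 5′ end. Over the whole length 8 of 22 positions hold the same base. The 2 miRNAs thus belong to different seed groups. On the array the seed of miR-214 was shared by miR-761 alone, which was Null in all 6 samples, and that of miR-199a-3p by miR-199b alone.

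In the RefSeq annotation of GRCm38.p6, Dnm3os occupies chr1:162217623-162225550 on the plus strand. Mir199a-2 (chr1:162217814-162217923) and Mir214 (chr1:162223368-162223477) both lie inside it, with 5444 bases between them. The hairpins are printed from RefSeq with the measured arm, the 3′ arm of each, in capitals. In both the unmeasured 5′ arm is the one whose well was Null.
Mir199a-2: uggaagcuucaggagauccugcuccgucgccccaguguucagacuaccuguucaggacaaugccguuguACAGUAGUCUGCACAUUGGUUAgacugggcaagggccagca
Mir214: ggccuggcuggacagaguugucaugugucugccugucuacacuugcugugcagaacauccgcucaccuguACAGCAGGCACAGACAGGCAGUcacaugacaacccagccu

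The mature sequence of miR-214 has 1 origin in the RefSeq table, Mir214 (miR-214-3p, chr1:162223438-162223459). That of miR-199a-3p has 3. These are Mir199a-2 in Dnm3os (chr1:162217883-162217904, plus strand), Mir199a-1 within Dnm2 (chr9:21496498-21496519, minus strand) and Mir199b within Dnm1 (chr2:32318524-32318545, plus strand). A Ct for miR-199a-3p is therefore not a reading of the Dnm3os transcript alone.

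The shared promoter is shown because the cluster's products come from 1 transcript. It is the RefSeq window of Dnm3os, chr1:162217373-162217672 of GRCm38.p6 on the plus strand, from 250 bases before the start site to 50 after it. Capitals mark 3 E-boxes (CANNTG, bound by Twist1 and related factors) and 1 CArG box (the site of serum response factor). Both motifs were searched on both strands and do not overlap here.
Dnm3os: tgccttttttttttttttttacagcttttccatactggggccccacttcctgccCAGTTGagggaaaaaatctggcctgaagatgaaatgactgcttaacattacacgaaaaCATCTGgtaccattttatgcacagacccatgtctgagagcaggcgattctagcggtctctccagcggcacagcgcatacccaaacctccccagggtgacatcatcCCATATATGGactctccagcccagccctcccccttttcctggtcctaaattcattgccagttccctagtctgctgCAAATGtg

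Of 32851 promoter windows of the same length, 72.3% held an E-box and 1.63% held a CArG box. A match is a run of letters, and binding was not measured here.

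A property of the table bears on every result. In 77 of 110 wells of the ACLT group and 82 of 110 of the Sham group, the raw Ct of sample 3 equalled that of sample 2 multiplied or divided by 1 fixed factor, 0.99 in ACLT and 0.97843 in Sham, within 0.002 cycles. The wells of miR-214 and miR-199a-3p were not tied in this way in either group. Their ratios of sample 3 to sample 2 were 1.05 and 0.997 in ACLT and 0.986 and 0.951 in Sham. Of the 100 tested miRNAs, 70 were tied in both groups and 16 in neither, and all 13 that passed as higher in ACLT were among the 16. The tied wells enter the spread that the test shares over all miRNAs.

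The labelled cell type was compared with a list of miRNAs chosen for the myeloid lineage, from which osteoclasts form. The list is not confined to miRNAs particular to that lineage, so a Ct for a member does not by itself mark the cell type. Of 9 such miRNAs, all on the array, 6 had a Ct. miR-223, miR-142-3p and miR-155, which myeloid cells carry, were Null in all 6 samples, while miR-142-5p had a mean Ct of 26.3 in ACLT and 26.5 in Sham. Mean Ct in ACLT and Sham was lower for miR-21 (20.4 and 24.8), miR-23a (23.4 and 23.5) and miR-146a (25.3 and 26.3). It was higher for miR-24 (29.4 and 29.5) and miR-22* (34.7 and 34.0). No source used here says what Null stands for, no signal or a value not reported.

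The comparison of ACLT with Sham asks how the osteoclasts' miRNAs differ once the knee is destabilised. Levels are given as minus ΔCt, the well's Ct subtracted from that of the U6 well of the same sample and plate, so a larger value means more RNA, and a step of 1 is a doubling when amplification is complete. miR-214 stood at 3.96, 4.92 and 4.53 in ACLT samples 1 to 3 and at 1.03, 1.08 and 0.99 in Sham samples 1 to 3. The lowest ACLT value lay 2.87 above the highest Sham value. The Sham values spanned 0.095, and the ACLT values 0.964 with sample 2 the highest. The means were 4.47 ± 0.48 and 1.03 ± 0.05 (SD, n = 3 each), and miR-214 was 10.8-fold higher in ACLT.

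The raw Ct values of miR-214 were 21.98, 21.21 and 22.34 in ACLT and 24.32, 25.82 and 25.47 in Sham. All ACLT wells crossed the threshold earlier than all Sham wells, before any normalizer was applied. The raw Sham values spanned 1.50 cycles, against 0.095 after the U6 well was subtracted. In the order of mean raw Ct, from the lowest, miR-214 was rank 2 of the 100 tested miRNAs in ACLT and rank 13 in Sham. Assays amplify with different efficiency, so this is an order of wells and not of molecules.

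miR-199a-3p stood at 3.21, 2.80 and 3.60 in ACLT samples 1 to 3 and at 1.02, 0.23 and 1.08 in Sham samples 1 to 3. Again the groups did not overlap, with 1.73 between the lowest ACLT and the highest Sham value. In both groups sample 2 was the lowest. The means were 3.20 ± 0.40 and 0.78 ± 0.47 (SD, n = 3 each), and miR-199a-3p was 5.39-fold higher in ACLT. Its raw Ct was 22.73, 23.33 and 23.26 in ACLT and 24.33, 26.67 and 25.38 in Sham, a mean of 23.1 ± 0.33 against 25.5 ± 1.18. Both folds equal the ratios in the authors' deposited table, 10.8 and 5.39, which come from the same ΔCt. In sorted cells, more RNA per osteoclast and a larger share of cells that carry the miRNA cannot be told apart.

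**Figure D1:**
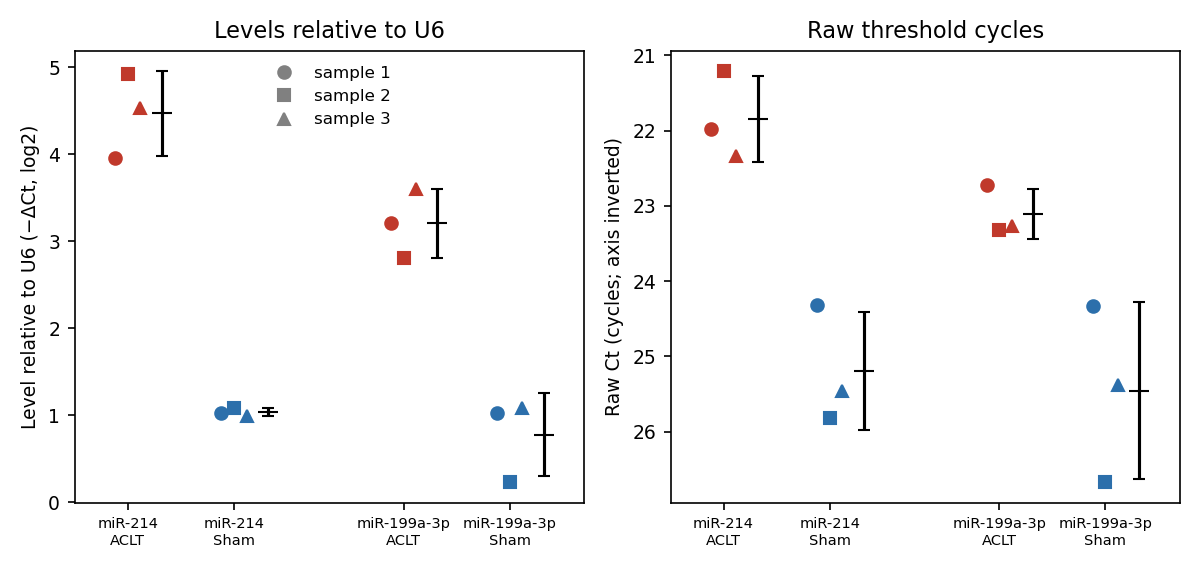
Levels relative to U6 (left, minus ΔCt on a log2 scale) and raw Ct (right, in cycles, axis inverted so that up is more RNA) of miR-214 and miR-199a-3p; red is ACLT, blue is Sham, marker shapes are the sample numbers, and black bars are mean ± SD of 3 samples. In both panels the 3 ACLT values of each miRNA lie above its 3 Sham values, and the Sham levels of miR-214 span 0.095 relative to U6 but 1.50 cycles as raw Ct.

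Both miRNAs passed the test across all miRNAs. The log2 difference, ACLT minus Sham, was 3.44 ± 0.58 (SE) for miR-214 and 2.43 ± 0.61 (SE) for miR-199a-3p, with limma adjusted p-values of 3.78e-07 and 0.000945. Of all 100 miRNAs tested, 13% passed as higher. ACLT values all above Sham values were seen for 18% of the 100, and for 27% in raw Ct. The small p-values use 400 degrees of freedom pooled over wells of the same 6 samples. From their own 6 values alone, the differences had standard errors of 0.28 and 0.36. An exact two-sided permutation test of each miRNA gave p = 0.1, the smallest that 3 samples against 3 can give. By size of the rise miR-214 was rank 2 and miR-199a-3p rank 8 of 100.

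**Figure D2:**
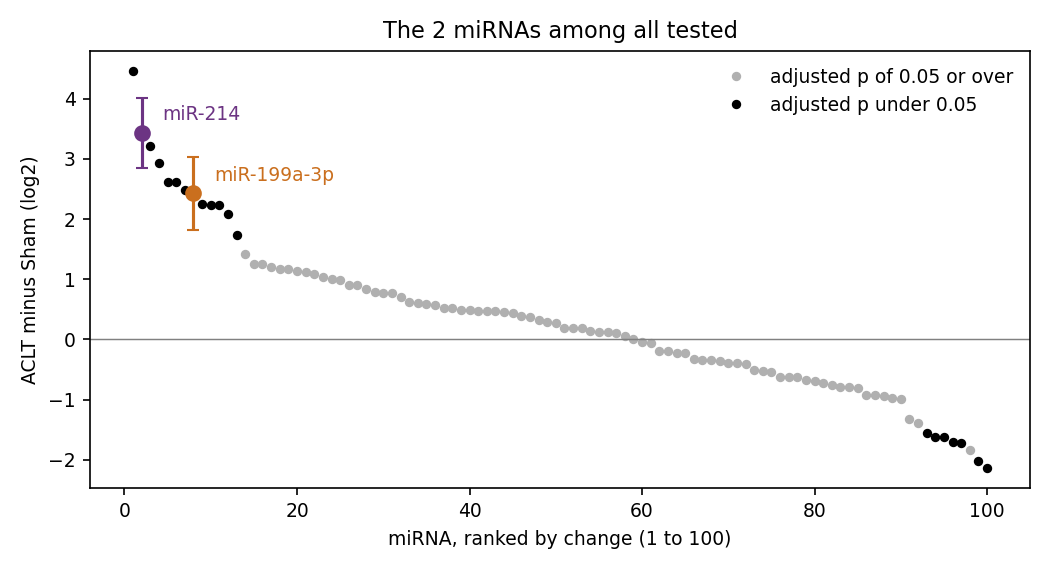
Change of each of the 100 tested miRNAs (y, ACLT minus Sham, log2) in order of size (x, rank); black points passed a limma adjusted p of 0.05, grey points did not, and bars on miR-214 and miR-199a-3p are ± SE. miR-214 stands second at 3.44 and miR-199a-3p eighth at 2.43, the latter among several points of much the same height.

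The ratio of the 2 miRNAs asks whether they rose by the same amount. Both wells lie on plate 1, so their difference within a sample holds no normalizer. On the log2 scale miR-214 minus miR-199a-3p was 0.75, 2.12 and 0.93 in ACLT and 0.01, 0.86 and -0.09 in Sham. Sample 2 was the highest in each group, and ACLT sample 1 lay below Sham sample 2, so the groups overlapped. The means were 1.26 ± 0.74 and 0.26 ± 0.52 (SD, n = 3 each). The difference of 1.01 had an exact two-sided permutation p = 0.2, so a larger rise of miR-214 was not told from the spread between samples. It was 0.58 without ACLT sample 2, and 0.83 to 1.30 when any of the other samples was left out.

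**Figure D3:**
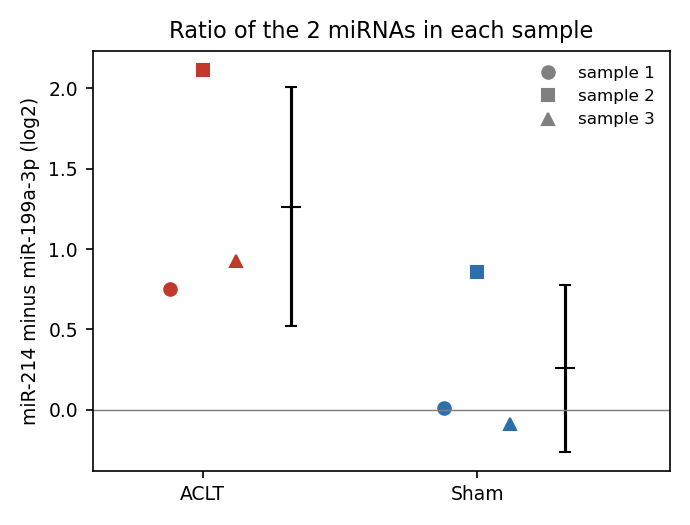
Log2 ratio of miR-214 to miR-199a-3p (y) in each ACLT (red) and Sham (blue) sample, with marker shapes for the sample numbers and black bars for mean ± SD of 3 samples. ACLT sample 2, at 2.12, stands above the other ACLT samples at 0.75 and 0.93, and Sham sample 2, at 0.86, lies between those.

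How far the rises depend on the normalizer was examined with the array's 3 reference assays, of which the file headers name U6 for the normalization and the other two are unnamed. On plate 1 the U6 well had a mean Ct of 26.3 (SD 0.49) in the 3 ACLT samples and of 26.2 (SD 0.80) in the 3 Sham samples (exact permutation p = 1). Reference 2 on that plate differed by -0.57 cycles (exact permutation p = 0.8). Reference 3 differed by -2.66 cycles, at 28.3 ± 0.79 in ACLT against 31.0 ± 0.53 in Sham (SD, n = 3 each), with no overlap (exact permutation p = 0.1). Its shift in raw Ct lay between those of miR-214 (-3.36) and miR-199a-3p (-2.35). On plate 2 reference 3 stood at 28.3 ± 0.56 in ACLT against 31.1 ± 0.29 in Sham (SD, n = 3 each). That was a difference of -2.87 cycles, again with no overlap (exact permutation p = 0.1). U6 on plate 2 differed by -0.16 cycles (exact permutation p = 0.8). The same reference assay read on both plates in 1 sample differed by up to 0.544 cycles for U6, 0.782 for reference 2 and 0.654 for reference 3.

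Under the U6 well of the other plate, chosen as a setting after seeing the data, the log2 differences were 3.20 for miR-214 and 2.19 for miR-199a-3p. In that setting 13 of the 100 miRNAs passed as higher. On raw Ct with no normalizer they were 3.36 and 2.35, where 18% of all miRNAs passed as higher. Relative to the median miRNA of each sample they were 3.10 and 2.10, where 13% passed as higher. Quantile normalization gave 1.99 and 1.22, where 12% passed as higher. Both miRNAs passed in each of these settings, with limma adjusted p-values of at most 0.0427.

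The other reference assays moved the result. With reference 2 alone, miR-214 stood at 2.79 ± 1.39 (SE) and miR-199a-3p at 1.79 ± 1.35 (SE). With U6 the SEs were 0.58 and 0.61. Neither miRNA passed with reference 2 (limma adjusted p = 0.986 for both). There limma passed 0% of all miRNAs as higher, with 2 of 100 at an unadjusted p under 0.05 in either direction. The ACLT and Sham levels of miR-199a-3p overlapped while those of miR-214 did not. The share of all miRNAs without overlap was not counted in that setting. With reference 3 alone, miR-214 stood at 0.70 ± 0.59 (SE) and miR-199a-3p turned to -0.30 ± 0.60 (SE), both with overlapping groups and limma adjusted p-values of 0.276 and 0.645, where 1% passed as higher. With the mean of references 1 and 2, miR-214 passed at 3.11 and miR-199a-3p did not at 2.11 (limma adjusted p = 0.00812 and 0.09), where 4% passed as higher. With the mean of all 3 references the values were 2.31 and 1.30, of which only miR-214 passed (limma adjusted p = 0.00166 and 0.0642), where 6% passed as higher.

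A reference assay shifts all wells of a plate together. The median change of all 100 tested miRNAs was 0.24 with U6, -0.33 with reference 2, -2.50 with reference 3 and -0.87 when all 3 references were averaged. Relative to that median, miR-214 stood at 3.20 and miR-199a-3p at 2.19 with U6, and at the same 3.20 and 2.19 with reference 3. On plate 1 the order of the changes cannot move with the reference assay, and there miR-214 was rank 2 and miR-199a-3p rank 8 of 94. Whether U6 or reference 3 tracks the amount of RNA was not tested.

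**Figure D4:**
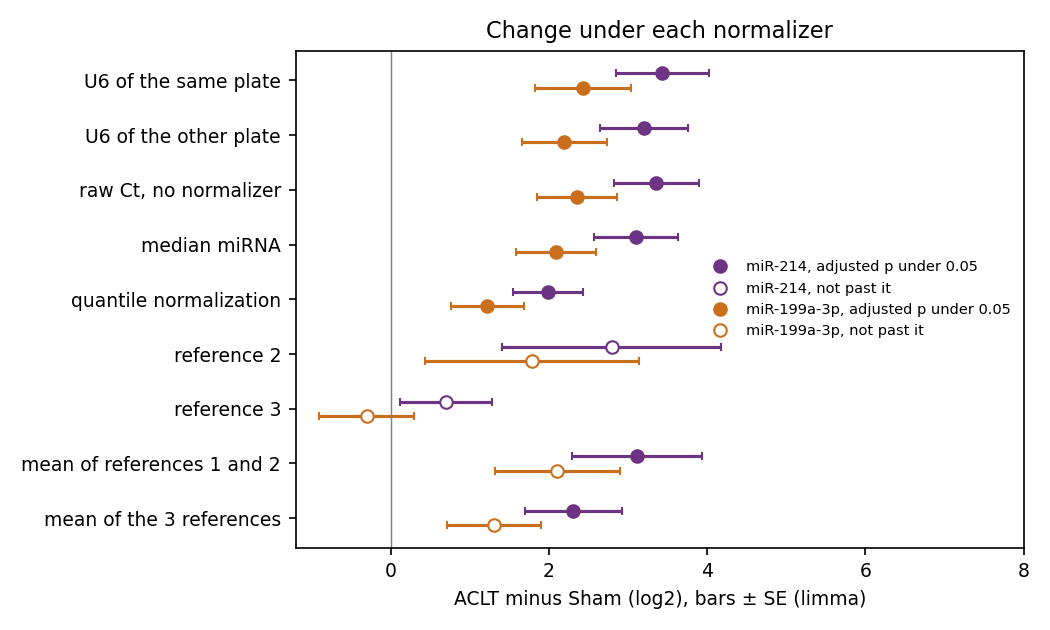
Change of miR-214 (purple) and miR-199a-3p (orange) on the x axis (ACLT minus Sham, log2, bars ± SE from limma) for each normalizer on the y axis; filled points have a limma adjusted p under 0.05. The points of miR-214 run from 0.70 with reference 3 to 3.44 with U6, and miR-199a-3p is the lower of the pair in each setting, from -0.30 to 2.43.

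The tie between samples 2 and 3 was handled by fewer samples. With samples 2 and 3 of each group averaged, miR-214 stood at 3.31 and miR-199a-3p at 2.37 (limma adjusted p = 5.3e-05 and 0.0167), and 11% of all miRNAs passed as higher. With only samples 1 and 2, they stood at 3.38 and 2.38 and miR-199a-3p no longer passed (limma adjusted p = 0.00196 and 0.109), where 3% passed as higher. Among the 16 miRNAs tied in neither group, fitted alone after seeing the data, 15 passed as higher, these included.

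The remaining products of the cluster were on the array without a value. miR-214*, the 5′ arm of Mir214, and miR-199a-5p, the 5′ arm of Mir199a-2 and Mir199a-1, were Null in all 6 samples. This was the usual state of the array. Of 153 pairs of arms of 1 hairpin that the array held, 57 had a Ct for at least 1 arm, and only 3 of these had a Ct for both.

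The well of miR-199b was also Null in all 6 samples, although its listed target is the same 22 bases as that of miR-199a-3p, which had raw Ct values from 22.73 to 26.67. The array held 6 sequences listed under more than 1 name. In 5 of them no well had a Ct, and miR-199a-3p with miR-199b was the only one where 1 well had a Ct and another did not. Whether a shared reading was entered once, or the primers of these wells differ, was not tested. miR-199b*, the arm opposite to it, was Null as well.

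The profiles over the 6 samples most like those of the members were found by the root mean square of the difference between mean-centred levels, in log2 units. Centring over all 6 samples keeps the difference between ACLT and Sham in this distance. All the neighbours named for either member passed as higher in ACLT, against 13% of all 100 tested miRNAs. Because both members rose, this distance favours other miRNAs that rose, so those calls are no separate result. For miR-199a-3p the nearest of the 99 other tested miRNAs was miR-145, a smooth muscle and stromal miRNA, at 0.19. miR-29a, which represses collagen messages, followed at 0.25 and miR-200c, known from epithelia, at 0.29. miR-378 and miR-200b followed at 0.59 and 0.60. miR-214 was eighth, at 0.73, so its partner in Dnm3os was not among its 5 nearest.

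miR-214 had its nearest profile in miR-148a, at 0.54. miR-21 (0.68), miR-29a (0.71), miR-199a-3p (0.73) and miR-30a (0.73) followed. The median distance to all others was 1.75 for miR-214 and 1.30 for miR-199a-3p. Over all 100 miRNAs the median distance to the nearest profile was 0.11, which includes the tied wells.

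Both miRNAs are carried by stromal cells, so the other stromal miRNAs were read beside them. Of 14 on the list, all on the array, 6 had a Ct and were tested. miR-214, miR-199a-3p and miR-145 passed as higher and none passed as lower. The median change of the 6 was 1.44, against 0.24 for all 100, where 13% passed as higher. Without miR-214 and miR-199a-3p, 1 of the other 4 passed and their median change was -0.11. miR-145, which shares a transcript with miR-143, rose by 2.61 ± 0.60 (SE; limma adjusted p = 0.000368). miR-143 itself stood at -0.67 ± 0.59, miR-152 at -0.76 ± 0.59 and miR-100 at 0.45 ± 0.59 (SE), and none of these passed (limma adjusted p of at least 0.417). The last 3 were tied in both groups.

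The other 8 stromal miRNAs were Null in all 6 samples, among them miR-125b-5p, miR-10b and miR-199a-5p. The summed level of the 6 tested ones ran from 5.23 to 5.69 in ACLT and from 2.33 to 2.87 in Sham (log2 of the sum, relative to U6), and miR-214 and miR-199a-3p are part of that sum. Without them it ran from 2.85 to 4.04 in ACLT and from 0.79 to 1.68 in Sham. That remaining sum is nearly miR-145 alone, whose mean level was 3.49 in ACLT and 0.88 in Sham. The mean levels of miR-143, miR-152 and miR-100 were -2.77 or lower in both groups. The part of stromal cells in the rise was not tested.

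The miRNAs described as favouring osteoclasts, to which miR-214 belongs, form a list that was drawn up with earlier results of these data known. Of 11, all on the array, 7 had a Ct and were tested. miR-21, miR-214, miR-148a and miR-29a passed as higher and none passed as lower, with a median change of 2.25 over the 7, against 0.24 for all 100, where 13% passed as higher. Without miR-214, 3 of the other 6 passed and their median change was 1.83. Of the 7 tested, 6 were among the 16 miRNAs tied in neither group, which hold all 13 higher calls. miR-21, which represses Pdcd4, changed most, by 4.47 ± 0.55 (SE; limma adjusted p = 4.73e-13). miR-148a rose by 3.21 ± 0.60 and miR-29a by 2.25 ± 0.61 (SE; limma adjusted p = 5.81e-06 and 0.00287). miR-29b at 1.41, miR-183 at 1.11 and miR-29c at 0.90 did not pass (limma adjusted p of at least 0.11). The remaining 4, miR-31, miR-9, miR-223 and miR-155, were Null.

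Other cell types of the marrow were read through short lists. Of the 6 tested miRNAs on the myeloid list only miR-21 passed, against 13% of all 100. The other 5 stood at 1.04 (miR-146a), 0.28 (miR-142-5p), 0.15 (miR-24), 0.12 (miR-23a) and -0.80 (miR-22*), and the median change of the 6 was 0.21, against 0.24 for all 100. None of 3 erythroid miRNAs (miR-451 1.21, miR-144 -0.54, miR-486 -0.62), 2 lymphoid miRNAs (miR-150 1.08, miR-181a -1.32) and 1 endothelial miRNA (miR-126-3p 0.29) passed by limma. All 6 of these were tied in both groups. The 3 ACLT levels of miR-451 lay above its 3 Sham levels, which 18% of all 100 miRNAs showed.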

How the data were processed

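Trizol extraction, QuantiMir reverse transcription and SYBR Green PCR of 40 cycles on a ViiA7 are recorded per the labels' protocols. The authors deposited raw Ct per well, ΔCt, and a ratio of ACLT to Sham, which the file headers define as 2 to the power of minus ΔΔCt relative to U6. Deposited ΔCt equalled raw Ct minus the first reference well of the plate. Data lines of the tables begin with a hash mark, and 2 lines of the ΔCt table were not used here. qPCR has no read depth: sample number limits precision.

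Of 717 wells, 110 had a Ct. Tests covered miRNAs whose Ct stayed below 35 throughout ACLT or throughout Sham. Minus ΔCt was fitted across all 100 with limma 3.58.1 in R 4.3.3 (lmFit, eBayes with trend, two-sided, Benjamini-Hochberg, threshold 0.05). The fit was tried on simulated independent samples, which lack the tied wells of these data. Single values had exact permutation tests in scipy 1.17.1. Sequences and loci come from RefSeq, GRCm38.p6; 542 of 707 listed sequences equalled a RefSeq mature miRNA. The miRNAs and lists were chosen with earlier results of these data known. Named are the members, other arms and loci of the cluster, detected members of the stromal and osteoclast-favouring lists, reference assays and the 5 nearest profiles per member; other names were chosen after their values were seen. Alternatives covered normalizers, Ct limits, variance models, a replicate block and left-out samples.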

Additional observations from a re-analysis of the deposited data

How the results depend on the processing

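Of 24 alternatives each, miR-214 kept its direction in all 24 and its limma call in 21, and miR-199a-3p its call in 18. Calls ended with reference 2 (2.79 and 1.79), reference 3 (0.70, and -0.30, a turned direction), the exact permutation test, which cannot go under 0.1 (3.44 and 2.43), and for miR-199a-3p alone with the mean of the 3 references (1.30), the mean of references 1 and 2 (2.11) and only samples 1 and 2 (2.38). The turn with reference 3 follows from that assay's own shift of -2.66 cycles; the cause of the shift was not tested. Leaving out 1 sample gave 3.21 to 3.69 for miR-214 and 2.16 to 2.63 for miR-199a-3p, with both called each time. The log2 ratio of the miRNAs stayed above 0 in all 10 alternatives, none with an exact permutation p under 0.2. With fewer samples the smallest p that test can give rises, to 0.2 when 1 sample is left out. The p-values of those settings therefore cannot decide whether the ratio differed. The stromal list's 3 higher calls became 0 with reference 2 and with reference 3, and 1 with the mean of references 1 and 2 and with only samples 1 and 2. The 4 of the osteoclast-favouring list became 0 and 1 with references 2 and 3. All 13 higher calls of the whole table became 18 on raw Ct, 0, 1, 4 and 6 with reference 2, reference 3, the mean of references 1 and 2 and the mean of all 3, and 3 with only samples 1 and 2; the 7 lower became 12, 0, 87, 0, 34 and 0 there, 19 relative to the median miRNA, 14 after quantile normalization, 1 with the block and 0 with samples 2 and 3 averaged. Without ACLT samples 1, 2 and 3 in turn the lower calls were 1, 0 and 3, and without Sham samples 1, 2 and 3 they were 16, 1 and 1, while the higher calls ran from 11 to 14. At an unadjusted limma p under 0.05, in either direction, 2 miRNAs stood with reference 2, 22 with the mean of references 1 and 2, 17 with only samples 1 and 2, 18 with samples 2 and 3 averaged and 20 without ACLT sample 2. The samples share only a number. Same-numbered deviations correlated at 0.24, 0.06 and 0.07 over the 100 miRNAs, and differently numbered ones at -0.22 to 0.22. With the replicate block the changes were 3.44 and 2.43, both called, with 13 higher. Both wells lie on plate 1, so no reference assay can move their ratio.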

Other observations

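In Sham sample 1 the raw Ct of 5 wells, those of miR-214 (24.32), miR-199a-3p (24.33), miR-145, miR-148a and miR-200c, lay between 24.28 and 24.33, a span of 0.05 cycles. The span of the same 5 wells was 0.862 in Sham sample 2, 1.27 in Sham sample 3, and 0.887, 2.12 and 1.36 in ACLT samples 1 to 3. These wells were picked after their values were seen. In ACLT sample 2 the raw Ct of miR-199a-3p and of miR-29a were both 23.327, and that of miR-145 was 23.329. In Sham sample 2 miR-199a-3p minus miR-145 was -0.007 cycles. No well of the 99 others lay within 0.05 cycles of miR-214 in any ACLT sample, where its mean raw Ct was rank 2 of 100 from the lowest. For miR-199a-3p there were 2, 5 and 2 such wells in ACLT samples 1 to 3.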
